A study of Mus musculus with 6 samples.

Results

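Guides against upstream translons of Ddx5, Ddx17, Hnrnpf and Cnbp, which encode RNA helicases and RNA-binding proteins, were followed through a pooled CRISPR-Cas9 growth screen in mouse embryonic stem cells. An upstream translon is a translated region that lies 5′ of the annotated coding sequence, and the gene that carries it is called its host here. The members were chosen by the host name in the guide's label, which gave 8 of the 151 named guides and 4 of the 73 hosts, with 2 guides per host. All 8 guides passed the filter on low counts. The cells were of the C57BL/6 line #693 ES, and all libraries came from cells infected with the same pool of lentivirus carrying Cas9 and a guide. The groups were 3 libraries of day 0 and 3 of day 10, labelled as biological replicates. Per the labels the screen used a single cell line, and no library without the guide pool was among the 6 analysed here. The comparison of the days asks whether cells that carried a given guide became rarer or more frequent during growth.

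Ddx5 and Ddx17 are DEAD-box proteins, which unwind RNA duplexes with energy from ATP. They are close paralogs with overlapping roles in splicing, in the processing of primary microRNA transcripts and as partners of transcription factors. Hnrnpf is a heterogeneous nuclear ribonucleoprotein that binds runs of guanines in pre-mRNA and regulates splice site choice and polyadenylation. Cnbp is a zinc-knuckle protein that binds guanine-rich single-stranded nucleic acid and is known as a regulator of translation. A cut by Cas9 in an upstream translon is repaired with small insertions or deletions, which can alter the translon and any regulatory sequence that overlaps it.

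The 8 guide sequences are shown because each change below belongs to a particular guide. They are written 5′ to 3′ and are 20 bases long. Capitals mark ATG in the guides of Ddx5, Ddx17 and Hnrnpf, and in the Cnbp pair the bases that the guides share on opposite strands.
Ddx5 guide 1: cgcaggattctactttcact
Ddx5 guide 2: caATGgtggcggtgtgcggg
Ddx17 guide 1: tgcgacgggagacagcgcgt
Ddx17 guide 2: tcgggtctagtgATGaccga
Hnrnpf guide 1: cgacgccttaaaaacgcaga
Hnrnpf guide 2: agATGcacctggactttccc
Cnbp guide 1: CGTCCGAGTctcctccgctg
Cnbp guide 2: ACTCGGACGaagaaccaaga

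The triplet ATG, searched on both strands (CAT on the strand shown), occurred in 3 of the 8 guides (37.5%) and in 39 of all 151 named guides (25.8%). It began at base 3 of Ddx5 guide 2, at base 13 of Ddx17 guide 2 and at base 3 of Hnrnpf guide 2. Whether these triplets are start codons was not analysed here, since the positions of the guides in the genome are not given in the table. None of the 8 sequences (0 of 8) lay in the 10 RefSeq promoter windows of the 4 genes (GRCm38.p6).

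The first 9 bases of Cnbp guide 1 were the reverse complement of the first 9 bases of Cnbp guide 2. If these bases are the same place in the genome, the guides overlap at their 5′ ends on opposite strands, and cuts 3 bases from each motif next to the target would lie 25 bases apart. Guides of Ddx5 and Ddx17 shared no stretch of more than 5 bases on either strand in any of the 4 pairings. GC content was 70% for Ddx5 guide 2, Ddx17 guide 1 and Cnbp guide 1, and between 45% and 55% for the other guides. The median of all named guides was 60%.

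Depth differed between libraries. Named guides had between 102313 and 602476 counts in the day 0 libraries, 646655 and 784149 in day 10 replicates 1 and 2, and 21991 in day 10 replicate 3. The 8 guides took between 6.41% and 7.14% of the named counts of a library. In day 10 replicate 3 they had between 37 and 354 counts each, so the values of that library are the least precise. Levels are given as counts per 1e6 counts (CPM), after TMM scaling (trimmed mean of M-values) of the libraries. A level is therefore a share of the pool, and a rise or a fall is relative to the other guides. Intervals on single values are exact 95% Poisson intervals and cover counting error only.

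Of the 4 hosts, Hnrnpf fell and Ddx17 rose at day 10, while Ddx5 and Cnbp did not pass the test. These calls are 2 of 4 hosts, against 37.3% of the 67 hosts tested, in edgeR's quasi-likelihood test at a Benjamini-Hochberg adjusted p under 0.05. Day 0 and day 10 levels were fully separate for 3 of the 4 hosts, against 47.8% of all hosts. Of the 8 guides, 1 passed the test, against 21.3% of the 136 guides tested, and 5 had no overlap between the days, against 38.2% of all guides. With so few members, neither share of calls is read as a result about these genes. The number of guides called in the whole pool was 12 with the replicate number as a block, 3, 5 and 9 without day 0 replicates 1, 2 and 3, and 47 without day 10 replicate 1, against 29 with all libraries. The number of hosts called was 15 and 13 without day 0 replicates 1 and 3, against 25.

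Cells with guides against the Hnrnpf translon became rarer. The summed guides of Hnrnpf had 10059, 10336 and 10135 CPM in day 0 replicates 1 to 3 and 7343, 6909 and 8304 CPM in day 10 replicates 1 to 3. All day 10 libraries lay below all day 0 libraries. The highest of them, replicate 3, rested on 183 counts with an interval from 7144 to 9598 CPM. This interval lay below the day 0 values but overlapped the interval of day 0 replicate 1, from 9454 to 10691 CPM. The share of the pool fell by 27.7%, a log2 fold change of −0.47 ± 0.09 (SE, 95% confidence interval from −0.65 to −0.28, adjusted p = 5.2e-04 in edgeR). This was the fifth lowest log2 fold change of the 67 hosts.

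Hnrnpf guide 1 carried the larger part of the host's counts, between 62.0% and 67.6% at day 0. It had 6232, 6988 and 6737 CPM at day 0 and 3997, 4560 and 5672 CPM at day 10, with no overlap between the days. Day 10 replicate 3 rested on 125 counts, and its interval from 4721 to 6758 CPM took in the day 0 values 6232 and 6737. The log2 fold change of guide 1 was −0.54 ± 0.12 (SE, adjusted p = 0.0131 in edgeR), which made it the only member guide past the threshold. Hnrnpf guide 2 had 3827, 3348 and 3397 CPM at day 0 and 3346, 2349 and 2632 CPM at day 10. Its day 10 values also lay below all day 0 values, though replicate 1 lay under the lowest of them by only a few CPM, and its log2 fold change of −0.33 ± 0.15 (SE) did not pass the test (adjusted p = 0.141 in edgeR). Both guides were thus lower at day 10, but in different libraries most. Guide 1 was lowest in replicate 1, where guide 2 was highest.

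For the ratio of the Hnrnpf guides no difference between the days was shown. An exact permutation test of 3 libraries against 3 cannot go below p = 0.1, so it could not pass 0.05. The log2 ratio of guide 1 to guide 2 was 0.92 ± 0.19 at day 0 and 0.77 ± 0.45 at day 10 (SD, n = 3 per day, exact two-sided permutation p = 0.8, 0.8 after adjustment over the 4 hosts). The calls of the host and of guide 1 were lost with size factors from the control guides (log2 fold changes −0.42 and −0.50, edgeR adjusted p-values 0.189 and 0.117). Without day 0 replicates 1, 2 and 3 guide 1 kept its size, at −0.58, −0.50 and −0.53, but missed the threshold (edgeR adjusted p-values 0.0509, 0.0780 and 0.0506). Guide 2 moved with the day 10 libraries, from −0.55 without replicate 1, where it passed (adjusted p = 6.9e-04 in edgeR), to −0.14 without replicate 2 (adjusted p = 0.433 in edgeR).

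Guides against Ddx17 rose by less than those of Hnrnpf fell. Summed, they had 20643, 20734 and 20844 CPM at day 0, values that differed by little, and 26715, 22283 and 22188 CPM at day 10. All day 10 libraries were above day 0, but replicate 1 stood well above the other two. In replicate 3, which held 489 counts, the interval ran from 20265 to 24245 CPM and so took in all day 0 values. The share of the pool was 15.3% higher, a log2 fold change of 0.20 ± 0.07 (SE, 95% confidence interval from 0.06 to 0.35, adjusted p = 0.0255 in edgeR).

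Neither guide of Ddx17 passed the test alone. Ddx17 guide 1 had 13934, 14654 and 14141 CPM at day 0 and 19459, 15390 and 14792 CPM at day 10, a log2 fold change of 0.23 ± 0.10 (SE, adjusted p = 0.122 in edgeR). Ddx17 guide 2 had 6709, 6080 and 6703 CPM at day 0 and 7256, 6892 and 7396 CPM at day 10, a log2 fold change of 0.14 ± 0.08 (SE, adjusted p = 0.282 in edgeR). Both guides were above day 0 in every day 10 library, and the high value of replicate 1 came from guide 1. Guide 1 had 326 counts in day 10 replicate 3, and its interval from 13230 to 16488 CPM took in all day 0 values. Guide 2 had 163 counts there, and its interval from 6304 to 8623 CPM took in the day 0 values 6709 and 6703. Guide 1 has 70% GC. Counts rose with guide GC by 0.19 on the log2 scale per 10% GC in day 10 replicate 1 and by 0.09 to 0.12 in the other 5 libraries. With a GC trend removed from each library, the host's log2 fold change was 0.19 (adjusted p = 0.0256 in edgeR), and the part of GC in the value of that library was not tested.

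The size of the rise of Ddx17 depended on day 10 replicate 1. It came to 0.094 on the log2 scale without that library (adjusted p = 0.0878 in edgeR). Without day 0 replicates 1, 2 and 3 the size stayed at 0.21, 0.20 and 0.20, and the edgeR adjusted p was 0.0980, 0.0835 and 0.121 with fewer libraries in the fit. It also missed the threshold with the replicate number as a block (0.19, adjusted p = 0.0557 in edgeR), with size factors from the control guides (0.24, adjusted p = 0.530 in edgeR) and with the mean of guide log2 CPM in place of summed counts (0.18, limma adjusted p = 0.146). The log2 fold change of guide 1 was 0.090 without day 10 replicate 1 (adjusted p = 0.264 in edgeR). Guide 1 passed without day 10 replicate 2 (0.33, adjusted p = 0.0416 in edgeR) and with limma voom and a variance per day (0.28, limma adjusted p = 0.0192).

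Guides against Ddx5 showed no change past the threshold. Summed, they had 13720, 13235 and 14043 CPM at day 0 and 12363, 11659 and 14656 CPM at day 10. Day 10 replicates 1 and 2 lay below day 0, and replicate 3 lay above it. The log2 fold change was −0.12 ± 0.08 (SE, 95% confidence interval from −0.30 to 0.06, adjusted p = 0.308 in edgeR), so a fall of the size measured for Hnrnpf lay outside the interval. Nearly all of these counts came from guide 2, at between 90.2% and 90.5% of the host at day 0.

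Ddx5 guide 2 had 12405, 11984 and 12664 CPM at day 0 and 10795, 10727 and 12977 CPM at day 10, a log2 fold change of −0.13 ± 0.08 (SE, adjusted p = 0.282 in edgeR). Its pattern over the libraries was that of the host. Ddx5 guide 1 was the rarest of the 8 guides, with 1315, 1251 and 1379 CPM at day 0 and 1568, 932 and 1679 CPM at day 10. Its day 10 libraries lay on both sides of day 0, and replicate 3 rested on 37 counts (interval from 1182 to 2314 CPM). The log2 fold change of guide 1 was 0.04 ± 0.23 (SE, adjusted p = 0.948 in edgeR), and its sign turned without day 10 replicate 1 (−0.34) and without day 10 replicate 3 (−0.08). Without the shallow day 10 replicate 3, Ddx5 passed the threshold at −0.19 (adjusted p = 0.0340 in edgeR), as did its guide 2 at −0.20 (adjusted p = 0.0366 in edgeR). With limma voom and a variance per day, Ddx5 passed as well, at −0.21 (limma adjusted p = 0.00249), and so did guide 2 (limma adjusted p = 0.0130).

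The paralogs were compared directly through the ratio of Ddx17 to Ddx5 counts within a library, which needs no scaling between libraries. The ratio was 1.50, 1.57 and 1.48 in day 0 replicates 1 to 3 and 2.16, 1.91 and 1.51 in day 10 replicates 1 to 3. Day 10 replicates 1 and 2 stood above all day 0 libraries, and replicate 3 lay within their range. On the log2 scale the ratio was 0.60 ± 0.04 at day 0 and 0.88 ± 0.26 at day 10 (SD, n = 3 per day). The difference of 0.28 was not past the spread between libraries (exact two-sided permutation p = 0.2, where 3 libraries against 3 cannot go below 0.1). Ddx17 thus passed the threshold and Ddx5 did not, but a difference between the paralogs was not shown. By replicate number the log2 ratio changed by 0.52, 0.29 and 0.03. An exact sign-flip test over these pairs gave p = 0.25, the smallest that 3 pairs allow.

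Single guides of the paralogs were also set against each other. The ratio of the most abundant guides, Ddx17 guide 1 over Ddx5 guide 2, changed by 0.31 on the log2 scale (exact two-sided permutation p = 0.2, n = 3 per day). Ddx17 guide 2 over Ddx5 guide 2 changed by 0.25 and was the only pairing of the 4 without overlap between the days (exact two-sided permutation p = 0.1, n = 3 per day). Pairings with the rare Ddx5 guide 1 changed by 0.17 for Ddx17 guide 1 and by 0.11 for Ddx17 guide 2, with permutation p-values of 0.6 and 1. The 4 pairings share guides and are no independent evidence. Within each paralog, guide 1 over guide 2 changed by 0.15 for Ddx5 and by 0.06 for Ddx17, both with an adjusted p of 0.8 over the 4 hosts (exact permutation test).

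Guides against Cnbp were slightly more frequent at day 10 but did not pass the test. Summed, they had 22542, 20866 and 21922 CPM at day 0 and 22554, 23458 and 26136 CPM at day 10. The days did not overlap, but day 10 replicate 1 was almost level with the highest day 0 library. The log2 fold change was 0.13 ± 0.06 (SE, 95% confidence interval from −0.0051 to 0.26, adjusted p = 0.122 in edgeR). Cnbp passed the threshold only without day 10 replicate 1 among the alternatives tried (log2 fold change 0.14, adjusted p = 0.0201 in edgeR).

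Cnbp guide 2 had 13233, 12178 and 12529 CPM at day 0 and 13682, 13704 and 16063 CPM at day 10. All its day 10 values were above day 0, with replicate 3 the highest on 354 counts (interval from 14433 to 17826 CPM). Its log2 fold change was 0.18 ± 0.08 (SE, adjusted p = 0.141 in edgeR), and it passed without day 10 replicate 1 (0.17, adjusted p = 0.0286 in edgeR). Cnbp guide 1 had 9309, 8688 and 9393 CPM at day 0 and 8872, 9754 and 10073 CPM at day 10, so that the days overlapped. Its log2 fold change was 0.05 ± 0.08 (SE, adjusted p = 0.737 in edgeR). The log2 ratio of guide 1 to guide 2 went from −0.47 ± 0.05 to −0.60 ± 0.09 (SD, n = 3 per day, exact two-sided permutation p = 0.2, 0.8 after adjustment). For this pair, whose sequences share 9 bases, no difference in change between the guides was shown.

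Changes within each screen, taken by replicate number as log2 of day 10 over day 0 on CPM plus 1, were also compared between the hosts. Hnrnpf was lower in all 3 screens, at −0.45, −0.58 and −0.29 for numbers 1 to 3. Ddx17 was higher in all 3, at 0.37, 0.10 and 0.09, with most of its change in the first. The days did not overlap for these hosts, so any pairing of the libraries would give the same signs. Ddx5 was lower in screens 1 and 2, at −0.15 and −0.18, and higher in screen 3, at 0.06. Cnbp was level in screen 1, at 0.00079, and higher in screens 2 and 3, at 0.17 and 0.25. Hnrnpf was thus the lowest of the 4 hosts in each screen, whereas Ddx17 was the highest in screen 1 and Cnbp in screens 2 and 3. The pairing by number rests on the column names. Deviations of same-numbered libraries from their day means had correlations over guides of −0.09, −0.20 and −0.02.

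Libraries of day 10 varied more than those of day 0. The SD of CPM was larger at day 10 for all 4 hosts and for 7 of the 8 guides, the exception being Ddx17 guide 2. It was larger for 79.1% of all 67 hosts and for 79.4% of all 136 guides. The median coefficient of variation of the 4 hosts was 2.19% at day 0 and 10.2% at day 10. The corresponding values of all hosts were 3.46% and 8.55%. Depth was unequal, since day 10 replicate 3 had 21991 named counts, fewer than any day 0 library. Day 10 replicates 1 and 2 had more than any day 0 library. The part of counting error in the spread was not tested.

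The 3 non-targeting and 3 safe-targeting control guides had log2 fold changes from −0.42 to 0.55. Of the 8 member guides, Hnrnpf guide 1 lay below this range and the other 7 lay within it, including both guides of Ddx17. Among hosts, Hnrnpf lay just below the range and the other 3 within it. No control guide passed the threshold (0 of 6 in edgeR's quasi-likelihood test, 1 of 6 at an unadjusted p under 0.05). Control guides were rarer at day 0 than the member guides other than Ddx5 guide 1, with means from 709 to 3038 CPM.

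Further hosts in the pool were taken by gene name prefixes of RNA helicases, RNA-binding proteins and deadenylation proteins. The prefixes, such as Ddx, Hnrnp, Pabp and Cnot, took in 9 hosts, of which Ddx5, Ddx17 and Hnrnpf are described above. Cnbp, which did not pass the test, begins with none of them and is not counted here. Of the other 6, 4 were lower at day 10 and 0 higher at an edgeR adjusted p under 0.05, against 22.4% lower and 14.9% higher of all 67 hosts. The count at an unadjusted p under 0.05 was also 4. Their median log2 fold change was −0.16, and that of all hosts 0.02. The prefixes were chosen with earlier results of these data known, so these comparisons are no test of RNA-binding protein hosts. Summed guides of Cnot1, which encodes the scaffold of the CCR4-NOT deadenylase, fell by 0.49 ± 0.09 (SE, adjusted p = 5.2e-04 in edgeR), a size close to that of Hnrnpf. Those of Pabpc4, which encodes a cytoplasmic poly(A)-binding protein, fell by 0.43 ± 0.05 (SE, adjusted p = 8.3e-06 in edgeR) on the log2 scale. Summed guides of Npm1, which encodes the nucleolar protein nucleophosmin, fell by 0.22 (adjusted p = 0.0103 in edgeR). With guide means the fall of Npm1 was 0.50 (limma adjusted p = 0.00802). Summed guides of Pabpc1, which encodes the main cytoplasmic poly(A)-binding protein, fell by 0.09 (adjusted p = 0.0255 in edgeR). Day 0 and day 10 levels of Pabpc1 overlapped.

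The remaining hosts of that list, named after their values were seen, were Sfpq, a paraspeckle protein, at 0.02 (adjusted p = 0.832 in edgeR), and Syncrip, a ribonucleoprotein of the hnRNP family, at −0.01 (adjusted p = 0.923 in edgeR). With size factors from the control guides 0 of these 6 hosts passed, with edgeR adjusted p-values of 0.137 for Cnot1, 0.229 for Pabpc4, 0.632 for Npm1 and 0.909 for Pabpc1. The signs of these 4 hosts stayed negative in that scaling. Npm1 missed the threshold without day 0 replicates 1 and 3, at −0.21 and −0.23 (edgeR adjusted p-values 0.0885 and 0.0588). Pabpc1 lay between −0.12 and −0.06 in all settings tried. It missed it without day 0 replicate 2 (−0.07, adjusted p = 0.137 in edgeR) and without day 10 replicates 1 and 3 (−0.06 and −0.08, edgeR adjusted p-values 0.0773 and 0.0949). It also missed it with the GC trend removed (−0.12, adjusted p = 0.0952 in edgeR), but not when the replicate block was added to that removal (−0.12, adjusted p = 0.00474 in edgeR). DESeq2, voom and guide means gave −0.07, −0.07 and −0.09, with adjusted p-values of 0.233, 0.137 and 0.293. Cnot1 and Pabpc4 passed whichever of the 6 libraries was left out. Of the 9 hosts taken by prefix, 6 had a call, against 37.3% of all 67 hosts, and only that of Ddx17 was a rise. With a list chosen after earlier results were known, this share is not read as a result about these genes. In the whole pool, 10 of the 67 hosts rose past the threshold. The call of Ddx17 was lost in 7 of 18 alternatives, and RNA-binding protein hosts outside the prefixes were not counted.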

How the data were processed

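Guide cassettes of 6 libraries were counted by the authors, who deposited raw counts per guide sequence for each library, per the file headers. Bowtie2 2.3.4.3 is named in the submitters' processing notes without a role, and the counting rule and filters are not given in the sources used here. Entries given as NA were taken as 0, since the table lists no 0. The 216 sequences without a name took 1.25% to 1.48% of a library and were left out.

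Guides that reached 10 counts in 3 or more libraries were tested with edgeR 4.0.16 (glmQLFit and glmQLFTest, R 4.3.3), with TMM factors and day as the only term. This kept 136 of 151 guides and 67 of 73 hosts. For hosts, guide counts were summed. P-values were adjusted (Benjamini-Hochberg) over all guides or all hosts. The SE was the log2 fold change divided by the square root of F. Ratios within a library used Python 3.11.15. The count test was tested on simulated data. These were drawn with the same spread for both days, so the larger spread of day 10 was not covered.

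Libraries were grouped by the day in their titles. The column names number the screens, so libraries of equal number were treated as pairs in the replicate block, the sign-flip test and the changes by replicate number. The main edgeR fit and the permutation tests did not use the pairs. Over guides, deviations of same-numbered libraries from their day means had correlations of −0.09, −0.20 and −0.02. The members, the prefix list and the rule for naming its hosts (those past the threshold) were chosen with earlier results of these data known. Alternatives were DESeq2 1.42.0, its size factors, library totals, control guide size factors, no filter, a minimum mean of 100 counts at day 0, voom in limma 3.58.1 with day-specific variances, the replicate block, removal of a linear GC trend per library with and without the block (trend fitted on the 128 guides with at least 10 counts in every library), guide means in place of sums, and the removal of each library. Psmd1 guide 2 left out was an alternative chosen after seeing the data.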

Additional observations from a re-analysis of the deposited data

How the results depend on the processing

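Under scaling by the control guides, 0 guides (19 at an unadjusted p under 0.05 in edgeR) and 2 hosts (12 at an unadjusted p under 0.05) of the whole pool passed the threshold, against 29 and 25. The log2 fold changes of Hnrnpf (−0.42) and Ddx17 (0.24) were no longer past it there. These factors shifted day 10 replicate 1 by −0.28 and day 10 replicate 3 by 0.17 on the log2 scale against TMM. Voom with day-specific variances called 50 guides and brought Ddx5 past the threshold, at −0.21, while Ddx5 guide 1 turned to −0.18. The mean of guide log2 CPM gave 14 hosts (12 lower, 2 higher, against 15 and 10) and Ddx17 at 0.18, no longer past it. With the replicate number as a block there were 12 guides, and Ddx17 missed the threshold at 0.19. DESeq2 size factors gave 15 hosts lower and 15 higher, and voom 18 and 19. The block changed no other call among the 4 hosts and 8 guides.

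Without single libraries the counts ran from 3 to 47 guides and from 13 to 30 hosts. Log2 fold changes ran from −0.19 to −0.037 for Ddx5, 0.094 to 0.29 for Ddx17, −0.51 to −0.39 for Hnrnpf, 0.079 to 0.16 for Cnbp and −0.34 to 0.31 for Ddx5 guide 1. The change in log2 ratio of guide 1 to guide 2 ran from −0.0051 to 0.37 for Ddx5, −0.054 to 0.16 for Ddx17 and −0.31 to 0.11 for Hnrnpf. That of Ddx17 to Ddx5 ran from 0.16 to 0.42. The cause was not tested. Over the 136 comparisons of the 8 guides with alternatives, 123 kept direction and side of the threshold, 4 fell below it, 6 rose past it and 3 changed sign. All 4 that fell below it were of Hnrnpf guide 1, out of its 17 alternatives. The other 7 guides were not past the threshold in the main fit and could not fall below it. The setting without a filter gave the values of the main fit, so the tally is no measure of robustness. The limit of depth was day 10 replicate 3.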
